A study of Mus musculus with 8 samples.

Results

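The genes described here encode the molecular chaperones of the cytosol and the mitochondria, together with the J-domain proteins that work with them. They were chosen by a rule on names. The rule uses no measured value, though earlier results of these data were known. It takes symbols that begin with Hspa, Hspb, Cct, Dnaja, Dnajb or Dnajc and a digit, and Tcp1, Hspd1, Hspe1, Hsph1 and the Hsp90a genes. Hspa5, Dnajb9, Dnajb11 and Dnajc3, which serve the endoplasmic reticulum, were left out by the rule. It found 77 of the 21757 mouse genes of a genotype experiment and 81 of the 60237 human identifiers of a knockdown experiment. The human identifiers carry 80 distinct symbols, since HSPA14 stands under 2 of them, and 75 symbols are shared between the experiments. Some members by name lie elsewhere in the cell, such as Hspa13 and Dnajc10 in the endoplasmic reticulum, and Hspb11 is a subunit of the intraflagellar transport machinery. DNAJC25-GNG10, HSPE1-MOB4 and HSPB2-C11orf52 are human readthrough loci that share exons with their neighbours.

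Polyadenylated RNA was measured in 8 libraries, 2 in each of 4 groups, made with a Smart-seq2 type of protocol. The Ctnnb1-ex3 group was small-intestinal organoids, epithelial cultures grown from crypts, that carry the Ctnnb1-ex3 allele; that name commonly denotes a beta-catenin gene without the exon that holds the sites for its degradation, so that the protein escapes degradation. Their medium held only Noggin and EGF. The WT group was organoids without the allele, which were grown with Wnt3a and R-spondin1 in addition, so genotype and medium cannot be told apart. The sh-Prmt1 group carried a short hairpin RNA against Prmt1, an arginine methyltransferase gene, and the sh-scramble group carried a scrambled hairpin. The labels call these knockdown libraries mouse intestinal organoids, yet their files hold human identifiers, so what was cultured is not established here, and human symbols are used for them. The labels do not say whether replicates are separate cultures, so every p-value reflects only how far the libraries of a group lie apart, and that may be technical.

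The Ctnnb1-ex3 libraries held 6015933 and 3683169 counts, and the WT libraries 4631527 and 2951887. The knockdown experiment was deeper, with 39608249 and 53193449 estimated counts in sh-Prmt1 and 39736404 and 45888287 in sh-scramble. PRMT1 itself stood at 2.99 and 3.35 counts scaled to library size (CPM) in sh-Prmt1 libraries, against 37.0 and 34.2 CPM in sh-scramble, so the target checks those labels. All 12 markers of intestinal epithelium were listed and tested in both experiments. In Ctnnb1-ex3 0 were called higher and 4 lower, beside 20.3% higher and 20.5% lower over all genes tested. The list median was -0.45 on the log2 scale. Most of these markers are abundant. All genes in the highest eighth by average level had a median of -0.44, with 40.6% called lower. The list summed to 2357 and 3218 CPM in Ctnnb1-ex3 against 3590 and 4515 CPM in WT. Krt20, of differentiated epithelium, had 52.0 and 46.2 CPM in Ctnnb1-ex3 against 283 and 324 CPM in WT. After sh-Prmt1 4 were higher and 1 lower, beside 20.6% and 20.4% over all identifiers tested. The sums were 4934 and 4756 CPM in sh-Prmt1 against 3962 and 3915 CPM in sh-scramble. Of 10 stromal markers 1 passed the filter on low counts in the genotype libraries and 3 after sh-Prmt1. Of 10 immune markers 3 passed in the genotype libraries, where the list was uneven: it summed to 18.0 and 67.0 CPM in Ctnnb1-ex3, against 103.8 and 17.5 CPM in WT. Lyz2 made up 74.4 CPM of that in WT replicate 1, and Gzma 28.3 CPM in Ctnnb1-ex3 replicate 2. In the knockdown 2 of 9 listed immune markers passed, GZMA was at 0 in all 4 libraries, and the list summed to 4.51 and 4.0 CPM in sh-Prmt1, against 1.65 and 1.32 CPM in sh-scramble. The part of these markers in the results was not tested. In bulk samples, fewer cells of a type and less RNA per cell cannot be told apart.

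Chaperones help proteins reach and keep their fold. HSP70 proteins (Hspa) bind exposed stretches of polypeptide in an ATP cycle; J-domain proteins (Dnaja, Dnajb, Dnajc) bring them substrates and start ATP hydrolysis, and HSP110 proteins (Hspa4, Hspa4l, Hsph1) exchange the nucleotide. HSP90 matures kinases and receptors, the ring-shaped TRiC complex (Tcp1 and the Cct subunits) folds actin and tubulin, and Hspd1 with its lid Hspe1 forms the chaperonin of the mitochondrial matrix. Small HSPs (Hspb) hold unfolded protein without ATP. Many of these genes are induced by heat shock factor 1, which binds repeated units of the heat shock element, and dividing epithelium of the intestinal crypt is known for high protein synthesis.

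The genotype comparison asked which chaperone transcripts Ctnnb1-ex3 organoids held at another level than WT organoids. Most did not pass the test. Levels are CPM scaled by TMM, a factor per library that assumes most genes unchanged; fold changes and adjusted p-values come from edgeR's quasi-likelihood test with p-values adjusted after Benjamini and Hochberg over every tested gene (edgeR adjusted p), and a gene was called when that was under 0.05. Of the 77 members, 62 passed the filter on low counts and 15 did not. Among the 62 tested, 6 rose, 7 fell and 49 were not called, so 21.0% of the tested members were called beside a background of 40.8% of all 12976 genes. The background was 20.3% for higher and 20.5% for lower calls, against 9.68% and 11.3% of the tested members. The median log2 fold change was -0.09 over tested members and 0.02 over all genes tested. J-domain genes supplied 11 of the 13 calls: 11 of 36 tested J-domain genes were called, and 2 of the other 26 members.

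**Figure D1:**
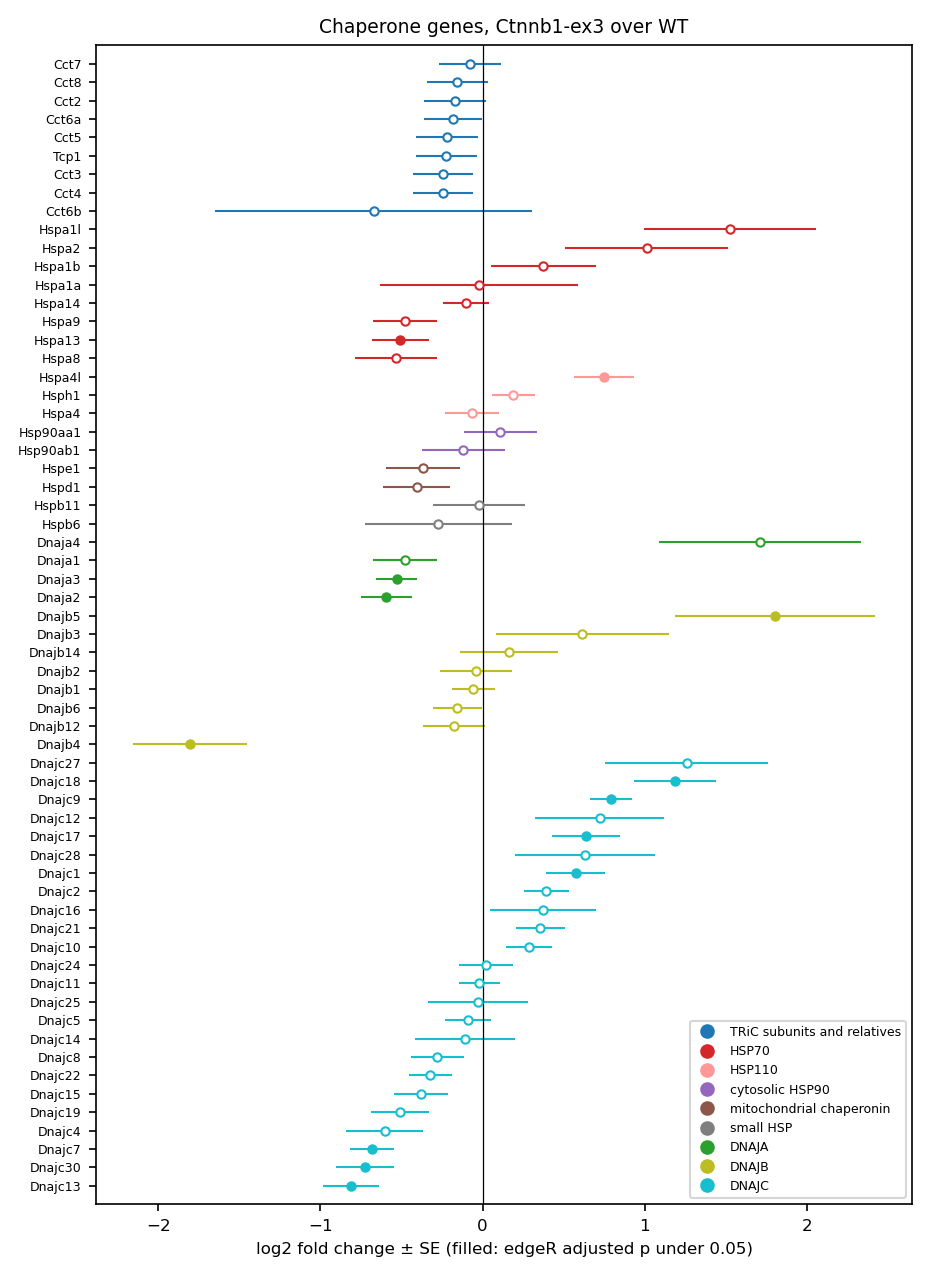
Log2 fold change (Ctnnb1-ex3 over WT) with its SE for each of the 62 tested chaperone genes, coloured by role; filled points had an edgeR adjusted p under 0.05 and open points did not. The 8 TRiC subunits lie together between -0.24 and -0.08, while the J-domain genes spread from -1.80 for Dnajb4 to 1.80 for Dnajb5.

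The J-domain gene with the largest fall was Dnajb4, a cytosolic partner of HSP70 of the DNAJB1 type (mm10 chromosome 3, 152178511 to 152210302, minus strand). It stood at 38.3 and 15.2 CPM in Ctnnb1-ex3 libraries, against 106.6 and 86.0 CPM in WT libraries. Both Ctnnb1-ex3 values were low, and they differed from each other more than the WT values did, but the groups did not overlap. With 2 libraries per group this is common without a difference, so here and below it only describes the values. The fall was 3.49-fold (log2 fold change -1.80 ± 0.35, SE; edgeR adjusted p = 0.00539, n = 2 libraries per group), and the call held in all 11 alternative settings and leave-outs. Its size depended on the library: without Ctnnb1-ex3 replicate 1 the log2 fold change was -2.69, and without Ctnnb1-ex3 replicate 2 it was -1.34. Its close relative Dnajb1, a major stress-inducible cofactor of HSP70, stood at 112 and 106 CPM in Ctnnb1-ex3 and 109 and 118 CPM in WT; these overlapped, with a log2 fold change of -0.06.

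Dnajc9, a J-domain protein that also acts as a histone chaperone (chromosome 14, 20384638 to 20388910, minus strand), rose. It had 119 and 126 CPM in Ctnnb1-ex3 libraries, against 70.7 and 70.8 CPM in WT libraries. Values within each group were close, and both Ctnnb1-ex3 libraries lay well above both WT libraries. The rise was 1.73-fold (log2 fold change 0.79 ± 0.13, SE; edgeR adjusted p = 0.00261), and it too was called in all 11 alternatives. Dnajc9 and Dnajb4 were the only members of the 13 of which that was true.

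Dnajc7, which bridges HSP70 and HSP90, fell 1.61-fold, with 104 and 113 CPM in Ctnnb1-ex3 and 172 and 176 CPM in WT (edgeR adjusted p = 0.00593). Dnajc13, an endosomal protein that recruits HSP70 to membrane trafficking, had 117 and 89.1 CPM in Ctnnb1-ex3 against 193 and 169 CPM in WT (log2 fold change -0.81, edgeR adjusted p = 0.00748). Dnajc18, a membrane J-domain protein of the endoplasmic reticulum, had 42.1 and 38.5 CPM in Ctnnb1-ex3 against 18.9 and 16.4 CPM in WT (log2 fold change 1.19, edgeR adjusted p = 0.00807). In each of these genes the groups stood clear of each other. Without WT replicate 2 the call of Dnajc7 was lost at an adjusted p of 0.052 and that of Dnajc18 at 0.0664, with log2 fold changes of -0.68 and 1.08. Dnajc7 was called at -0.39 with the abundance offset. The call of Dnajc13 was lost only with an offset that follows abundance (-0.52, adjusted p = 0.0583).

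The other called J-domain genes lost their calls when either WT library was left out. Dnaja2, a general cytosolic cofactor of HSP70, had 203 and 193 CPM in Ctnnb1-ex3 against 286 and 312 CPM in WT (log2 fold change -0.59). Dnaja3, its mitochondrial counterpart, had 96.2 and 96.3 CPM in Ctnnb1-ex3 against 136 and 143 CPM in WT (-0.53). The groups of both genes were apart, with all WT values higher. Dnajc30, a mitochondrial inner membrane protein, had 42.4 and 56.5 CPM in Ctnnb1-ex3 against 79.4 and 82.9 CPM in WT (-0.72). Dnajc1, which sits in the endoplasmic reticulum membrane and can bind ribosomes, had 87.6 and 67.3 CPM in Ctnnb1-ex3 against 55.7 and 48.3 CPM in WT (0.57). Dnajc17, a nuclear J-domain protein linked to splicing, had 46.6 and 53.2 CPM in Ctnnb1-ex3 against 34.1 and 29.7 CPM in WT (0.64). None of these groups overlapped. Dnajb5, a cytosolic J-domain gene, had few counts: 20 and 16 counts in Ctnnb1-ex3 against 5 and 2 in WT, a difference of 1.80 on the log2 scale at an edgeR adjusted p of 0.0479. The calls of Dnaja2, Dnaja3, Dnajb5, Dnajc1, Dnajc17 and Dnajc30 were each lost without WT replicate 1 and also without WT replicate 2. Without replicate 1 their log2 fold changes were -0.68, -0.60, 2.15, 0.66, 0.72 and -0.78. Without replicate 2 they were -0.54, -0.51, 1.58, 0.47, 0.53 and -0.71. Fits with 1 WT library called fewer of all genes than the main fit, so such a loss is not particular to these members. With the abundance offset Dnaja2 was at -0.16 (adjusted p = 0.396) and Dnaja3 at -0.29 (0.102), and with upper-quartile factors they were at -0.35 (0.0835) and -0.29 (0.095). Dnajb5 was lost as well without Ctnnb1-ex3 replicate 2 (adjusted p = 0.0528), and its log2 fold change was 0.70 with the offset. Dnajc1 was lost without Ctnnb1-ex3 replicate 1, at 0.35 (adjusted p = 0.0818).

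Other J-domain genes in the always-named set were not called: Dnaja1, a partner of constitutive HSP70, had 236 and 304 CPM in Ctnnb1-ex3 against 342 and 409 CPM in WT (log2 fold change -0.48, edgeR adjusted p = 0.0862). DESeq2 called Dnaja1 lower (adjusted p = 0.0131), as did edgeR with replicate number as a block (adjusted p = 0.00153). Without Ctnnb1-ex3 replicate 2 its log2 fold change was -0.67, while the abundance offset left -0.01. Dnajb6, a suppressor of aggregation, stood at -0.16. Just outside the threshold were Dnajc2, a partner of HSP70 at the ribosome (0.39, edgeR adjusted p = 0.0518), Dnajc19 of the mitochondrial import motor (-0.51, 0.0526) and Dnaja4 (1.71, 0.0591). Dnajc2 had 181 and 184 CPM in Ctnnb1-ex3 and 137 and 141 CPM in WT, a gap larger than the spread within either group.

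Among HSP70 genes, Hspa8, the abundant constitutive HSP70, had 398 and 591 CPM in Ctnnb1-ex3 libraries, against 616 and 814 CPM in WT libraries. Replicate 1 was the lower library in both groups, and the groups did not overlap. Its log2 fold change of -0.53 ± 0.25 was not called by edgeR (adjusted p = 0.126). Hspa9, the mitochondrial HSP70 that pulls proteins through the inner membrane, showed the same layout, with 294 and 372 CPM in Ctnnb1-ex3 and 425 and 503 CPM in WT (-0.48, edgeR adjusted p = 0.0862). DESeq2 called both, at adjusted p-values of 0.00865 for Hspa8 and 0.00801 for Hspa9. So did edgeR with replicate number as a block, at adjusted p-values of 0.000464 and 0.00113. Hspa13, an HSP70 relative of the endoplasmic reticulum, was the called HSP70 gene, with 93.9 and 66.8 CPM in Ctnnb1-ex3 against 116 and 115 CPM in WT (-0.51, edgeR adjusted p = 0.0489). That call was lost in 9 of 11 alternatives, at -0.29 without Ctnnb1-ex3 replicate 2 and at -0.53 without either WT replicate; it was kept at -0.80 without Ctnnb1-ex3 replicate 1.

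The stress-inducible HSP70 genes had few counts in these cultures. Hspa1b had 130 and 70 counts in Ctnnb1-ex3 and 63 and 38 in WT (log2 fold change 0.37, not called), and Hspa1a 17 and 27 counts in Ctnnb1-ex3 and 18 and 14 in WT (-0.03). These neighbours are near-identical copies, so counts between them are uncertain. Hspa2, an HSP70 best known from germ cells, had 93 and 55 counts in Ctnnb1-ex3 and 42 and 10 in WT (1.01, edgeR adjusted p = 0.141). Hspa1l, which lies beside Hspa1a on chromosome 17, had 69 and 58 counts in Ctnnb1-ex3 and 25 and 7 in WT (1.52, edgeR adjusted p = 0.0508). Hspa14, a ribosome-bound HSP70, stood at -0.10, while Hspa12a and Hspa12b, distant relatives, had at most 7 counts in any library.

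Hspa4l, a nucleotide exchange factor of the HSP110 group (chromosome 3, 40744495 to 40796103, plus strand), rose. It had 84.3 and 98.9 CPM in Ctnnb1-ex3 libraries, against 62.6 and 44.9 CPM in WT libraries. The groups did not overlap, though the WT values differed from each other. The log2 fold change was 0.75 ± 0.19 (edgeR adjusted p = 0.0151), and without WT replicate 2 it was 0.53 (adjusted p = 0.182). Hspa4 (-0.07) and Hsph1 (0.19), the other exchange factors, were not called; both were called higher with the abundance offset, at 0.38 and 0.46.

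For the cytosolic HSP90 genes no difference passed the test. Hsp90ab1, the constitutive form, had 489 and 730 CPM in Ctnnb1-ex3 and 568 and 755 CPM in WT (-0.12, edgeR adjusted p = 0.735). Hsp90aa1, the inducible form, had 472 and 646 CPM in Ctnnb1-ex3 and 465 and 572 CPM in WT (0.11, edgeR adjusted p = 0.723). Values of the groups overlapped in both. With the abundance offset both were called higher, at 0.45 and 0.66.

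None of the 8 TRiC subunits passed the test. Tcp1 had 242 and 307 CPM in Ctnnb1-ex3 and 297 and 345 CPM in WT, and Cct7 242 and 323 CPM in Ctnnb1-ex3 and 287 and 310 CPM in WT. In all 8 the lowest library was Ctnnb1-ex3 replicate 1, and in all 8 the groups overlapped. Their log2 fold changes were -0.17 for Cct2, -0.24 for Cct3, -0.24 for Cct4, -0.22 for Cct5, -0.18 for Cct6a, -0.08 for Cct7, -0.16 for Cct8 and -0.22 for Tcp1, with a median of -0.20 and none called. The signs of the 8 depend on the scaling: 6 of 8 were positive with upper-quartile factors, and with the abundance offset all 8 were positive and Cct7 was called higher, at 0.36. The testis-type subunit Cct6b had 2 and 18 counts in Ctnnb1-ex3 and 19 and 7 in WT.

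Hspd1 and Hspe1, which encode the barrel and the lid of the mitochondrial chaperonin, are neighbours on mm10 chromosome 1 that point away from each other; their annotated genes overlap by 112 bases, and reads without strand cannot be split there. Hspd1 had 320 and 408 CPM in Ctnnb1-ex3 libraries, against 430 and 534 CPM in WT libraries. Hspe1 had 134 and 195 CPM in Ctnnb1-ex3 and 178 and 246 CPM in WT. The Hspd1 groups were apart and the Hspe1 groups overlapped. Neither passed the edgeR test, at log2 fold changes of -0.41 (adjusted p = 0.149) and -0.37 (adjusted p = 0.23). DESeq2 called Hspd1 (adjusted p = 0.0307). EdgeR with replicate number as a block called Hspd1 (adjusted p = 0.00238) and Hspe1 (adjusted p = 0.0123) lower. Without Ctnnb1-ex3 replicate 2, Hspe1 was called at -0.66 (adjusted p = 0.00891).

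Of the 8 small HSP genes, 6 were under the filter. Hspb1, the general stress-inducible small HSP, had 16 and 2 counts in Ctnnb1-ex3 and 1 in each WT library. Hspb8, which works with the cochaperone Bag3, had 21 and 1 counts in Ctnnb1-ex3 and 1 in each WT library. In both, Ctnnb1-ex3 replicate 1 alone stood apart, and 1 was the lowest value in the table. Also under the filter, Dnajb7 had 25 and 2 counts in Ctnnb1-ex3 and 7 and 3 in WT, and Dnajb13, a component of motile cilia, had 4 and 1 in Ctnnb1-ex3 and 24 and 7 in WT. The remaining 11 of the 15 members under the filter had at most 10 counts in any library.

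**Figure D2:**
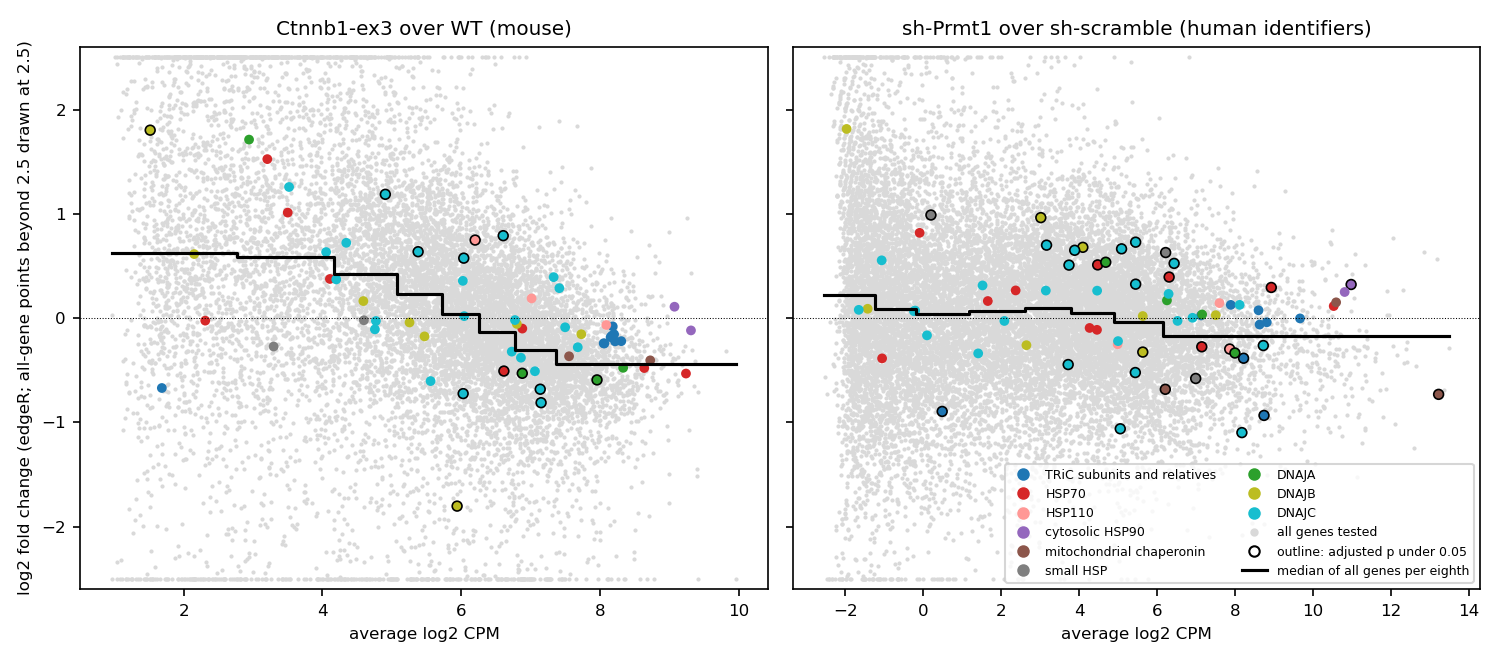
Log2 fold change against average log2 CPM for all genes tested (grey) and chaperone genes (coloured by role, outlined when called), with the Ctnnb1-ex3 over WT comparison on the left and sh-Prmt1 over sh-scramble on the right; the black steps are medians of all genes within eighths of abundance. On the left the steps run from 0.63 down to -0.44 and 21 of 62 tested members fall in the highest eighth; on the right they run from 0.22 to -0.17.

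Many chaperone genes had high counts, and in the genotype experiment fold changes depended on abundance. In the highest eighth of genes by average level the median log2 fold change of all genes was -0.44, and in the lowest eighth it was 0.63. The 21 members in the highest eighth had a median of -0.22, closer to 0 than that of all genes there. Of all genes in that eighth, 3.70% were called higher and 40.6% lower, against 0 and 1 of the 21 members. The ratio of replicate 1 to replicate 2 also fell with the count in both groups, to 1.39 in Ctnnb1-ex3 and 1.38 in WT above 2000 counts, against 1.92 and 1.84 at 30 to 100 counts. How the count table came to have this slope was not tested. Upper-quartile factors, which moved the median of all genes by 0.24, gave 13 higher and 3 lower members, and an offset that follows abundance gave 11 and 4. Under these scalings abundant members with small fold changes took different signs.

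The members were also described by the mouse promoter sequence. RefSeq windows of 300 bases, from 250 before to 50 after the start, were at hand for 62 of the 77 members on build GRCm38.p6. The 15 members without a window include Hspa8, Hspa9, Hsp90aa1, Hsp90ab1 and Cct4, and the called Dnajc18, Dnajc30 and Hspa13. Their promoters are not described here. A heat shock element of 2 units was taken as GAANNTTC or TTCNNGAA, with N any base; both words read the same on either strand. Of the 62 members, 20 (32.3%) held at least 1 such word, against 15.7% of 17492 protein-coding genes with a window. Words of 3 units, GAANNTTCNNGAA or TTCNNGAANNTTC, overlap the 2-unit words and were held by 4 members, Dnajb6, Hspd1, Hspe1 and Hsph1, which is 6.45%, against 0.595% of all. A match describes these letters only. Of the 15 tested members with a 2-unit word, 1 was called in Ctnnb1-ex3, and of the 34 tested members with a window but no word, 9 were called. These are 6.67% and 26.5%, beside 39.0% of 1324 tested protein-coding genes with the word and 42.1% of 8027 without; the difference between the members with and without the word was not tested. The called one was Dnajb4. The windows below show the element in a chaperonin gene, an HSP110 gene and a classical inducible HSP70 gene, none of which was called, and in Dnajb4; capitals mark the matched words.
Hspe1 (chr1:55087898-55088197, plus strand): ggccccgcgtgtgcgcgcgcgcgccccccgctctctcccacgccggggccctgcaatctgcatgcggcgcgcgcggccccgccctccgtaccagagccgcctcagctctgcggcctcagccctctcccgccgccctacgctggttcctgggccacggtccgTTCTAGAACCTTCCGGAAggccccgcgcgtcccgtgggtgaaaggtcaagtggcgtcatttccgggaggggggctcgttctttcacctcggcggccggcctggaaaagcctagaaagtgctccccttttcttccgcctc
Hsph1 (chr5:149636266-149636565, minus strand): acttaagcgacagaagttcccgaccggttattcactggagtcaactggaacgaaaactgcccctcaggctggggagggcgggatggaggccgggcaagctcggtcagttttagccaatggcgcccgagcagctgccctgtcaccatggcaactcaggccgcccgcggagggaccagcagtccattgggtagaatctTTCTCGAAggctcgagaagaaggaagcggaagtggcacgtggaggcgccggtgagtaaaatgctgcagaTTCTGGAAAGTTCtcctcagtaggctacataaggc
Hspa1b (chr17:34959189-34959488, minus strand): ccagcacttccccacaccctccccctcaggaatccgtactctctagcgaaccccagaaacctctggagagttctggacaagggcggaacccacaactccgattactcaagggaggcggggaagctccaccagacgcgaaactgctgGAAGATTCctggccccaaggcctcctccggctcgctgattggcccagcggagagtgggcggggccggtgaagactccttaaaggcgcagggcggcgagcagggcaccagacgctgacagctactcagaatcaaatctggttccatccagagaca
Dnajb4 (chr3:152193796-152194095, minus strand): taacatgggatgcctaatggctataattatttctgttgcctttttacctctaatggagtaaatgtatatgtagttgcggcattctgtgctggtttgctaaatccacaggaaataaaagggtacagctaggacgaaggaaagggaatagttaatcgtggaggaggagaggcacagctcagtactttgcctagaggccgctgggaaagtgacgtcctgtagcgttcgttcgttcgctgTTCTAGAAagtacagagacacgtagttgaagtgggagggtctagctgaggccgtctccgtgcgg

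The Hspe1 run is the longest of the 4 shown, with 2-unit words at 89, 84 and 79 bases before the start that overlap into 1 stretch. RefSeq gives Hspd1 a start on each side of that stretch, at positions 55088243 and 55087932, and the window of the downstream one shares 285 bases with the Hspe1 window. The genes of the chaperonin thus hold the same element. In Hsph1 a word lies 54 bases before the start and a 3-unit run begins 16 bases after it, in Hspa1b the word lies 104 bases before, and in Dnajb4 it lies 14 bases before the downstream of 2 annotated starts.

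The knockdown comparison asked which chaperone transcripts differed between sh-Prmt1 and sh-scramble libraries. PRMT1 fell to 2.99 and 3.35 CPM in sh-Prmt1, against 37.0 and 34.2 CPM in sh-scramble (log2 fold change -3.48 ± 0.12, SE; edgeR adjusted p = 1.04e-06, n = 2 libraries per group). Of the 81 identifiers 70 were tested, 11 being under the filter. Among them 16 rose, 15 fell and 39 were not called, so 44.3% were called beside a background of 41.0% of 18447 tested identifiers, with 20.6% higher and 20.4% lower. The share called is near that background. The median log2 fold change was 0.07 over tested members and 0.03 over all. Of the 31 calls, 17 held in all 10 alternatives, and all 31 kept their sign.

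**Figure D3:**
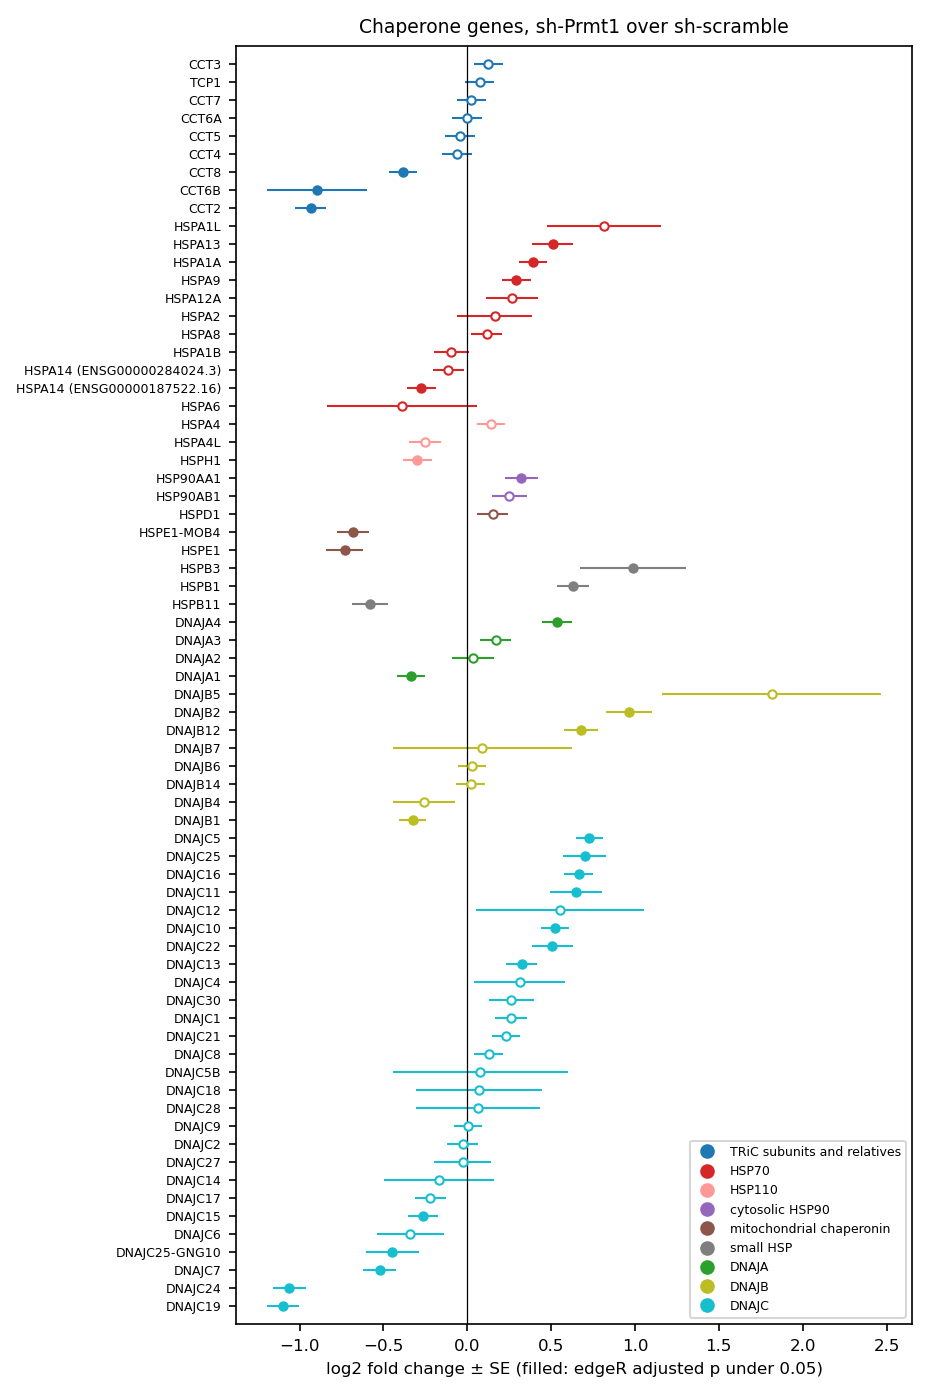
Log2 fold change (sh-Prmt1 over sh-scramble) with its SE for each of the 70 tested chaperone identifiers, coloured by role; filled points had an edgeR adjusted p under 0.05. CCT2 at -0.93 and CCT8 at -0.39 leave the other 6 TRiC subunits, which lie between -0.06 and 0.13, and HSPE1 at -0.73 is apart from HSPD1 at 0.15.

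HSPE1, the lid of the mitochondrial chaperonin, had by far the highest TPM of the members and fell. It had 6739 and 7700 CPM in sh-Prmt1 libraries, against 11540.5 and 12444 CPM in sh-scramble libraries. Both sh-Prmt1 values lay far below both sh-scramble values. The fall was 1.66-fold (log2 fold change -0.73 ± 0.11; edgeR adjusted p = 0.000678). The call held in every alternative, but with the abundance offset the log2 fold change was -0.30 (adjusted p = 0.0498). HSPD1, the barrel, had 1632 and 1633 CPM in sh-Prmt1 and 1468 and 1473 CPM in sh-scramble, which at 0.15 on the log2 scale was not called (edgeR adjusted p = 0.222). With the offset HSPD1 was called higher, at 0.47.

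Per length, HSPE1 stood at 8795 and 9257 TPM, which sets counts relative to effective length and library in sh-Prmt1, against 12546 and 14114 TPM in sh-scramble. HSPD1 stood at 444 and 414 TPM in sh-Prmt1 and 335 and 352 TPM in sh-scramble. The level of HSPE1 over that of HSPD1 was 19.8 and 22.4 in sh-Prmt1, against 37.4 and 40.1 in sh-scramble. The proteins act as rings that pair with each other, and these estimates were far from equal in all 4 libraries. The species of the reads is not established, so levels of different genes may not be comparable. By CPM, which is not set relative to length, WT organoids had 178 and 246 for Hspe1 against 430 and 534 for Hspd1. By CPM HSPE1 was above HSPD1 in all 4 knockdown libraries. The order per length in WT organoids was not computed. HSPE1 alone made up 60.8% and 63.5% of the members' summed TPM in sh-Prmt1, against 72.1% and 73.9% in sh-scramble, and 0.728% and 0.822% of all estimated counts, against 1.08% and 1.15%. Its 26 processed copies in the annotation (pseudogenes) drew 0.499% and 0.511% of the parent's counts in sh-Prmt1 and 0.487% and 0.496% in sh-scramble; how Salmon split reads between them was not tested. The readthrough locus HSPE1-MOB4 had 57.2 and 56.8 CPM in sh-Prmt1 and 84.4 and 98.6 CPM in sh-scramble (-0.68, edgeR adjusted p = 0.000405), and it shares exons with HSPE1, so it is no separate evidence.

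**Figure D4:**
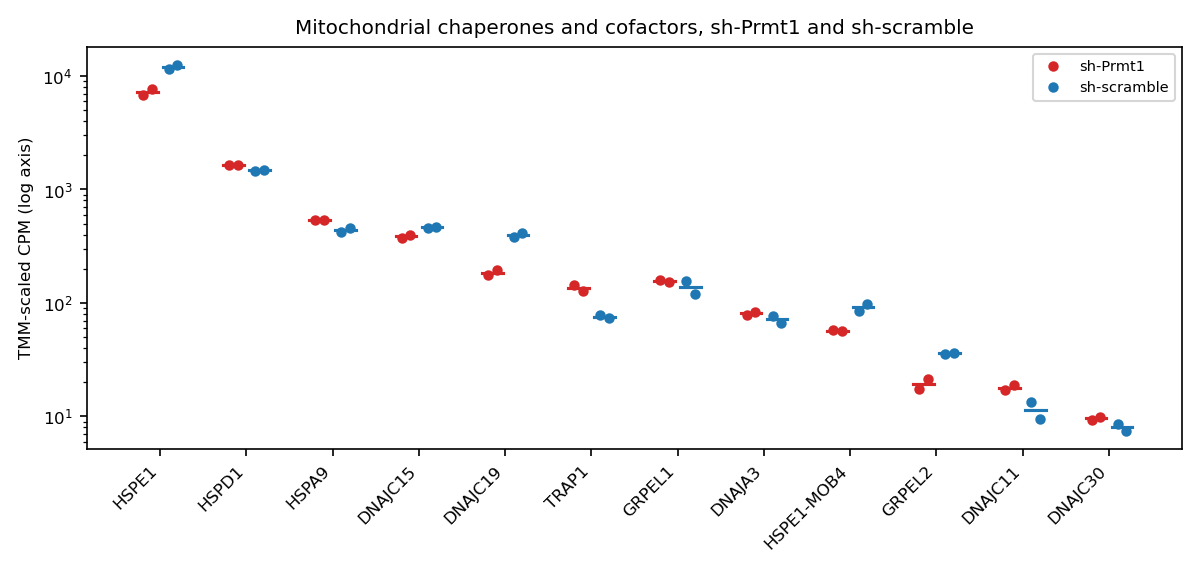
TMM-scaled CPM on a log axis of mitochondrial chaperones, J-domain proteins and cofactors in each library, sh-Prmt1 (red) left of sh-scramble (blue); points are libraries and bars are means of 2. HSPE1 at 6739 and 7700 in sh-Prmt1 and 11540.5 and 12444 in sh-scramble, DNAJC19 and GRPEL2 are lower in sh-Prmt1, and TRAP1 is higher.

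Other mitochondrial members moved in both directions. DNAJC19, the J-domain protein of the import motor, had 176 and 194 CPM in sh-Prmt1 libraries, against 378 and 413 CPM in sh-scramble libraries. The groups were far apart, and the fall was 2.14-fold (log2 fold change -1.10 ± 0.10; edgeR adjusted p = 3.05e-05), called in all 10 alternatives. DNAJC15, its paralog, had 372 and 400 CPM in sh-Prmt1 and 457 and 470 CPM in sh-scramble (-0.26, edgeR adjusted p = 0.0401). That call was lost in 6 alternatives, at -0.22 without sh-Prmt1 replicate 1, -0.34 without sh-Prmt1 replicate 2, -0.26 without sh-scramble replicate 2 and -0.03 with the abundance offset (adjusted p = 0.798). HSPA9 rose, with 537 and 541 CPM in sh-Prmt1 and 426 and 453 CPM in sh-scramble (0.29, edgeR adjusted p = 0.025, and 0.53 with the offset), a call lost without sh-Prmt1 replicate 1 (adjusted p = 0.108), sh-Prmt1 replicate 2 (0.132) or sh-scramble replicate 1 (0.202). DNAJC11, a protein of the mitochondrial cristae machinery, rose to 17 and 19.0 CPM in sh-Prmt1, against 13.4 and 9.57 CPM in sh-scramble (0.65, edgeR adjusted p = 0.0082). Its call was lost without sh-Prmt1 replicate 2 (0.55, adjusted p = 0.0597), and without sh-scramble replicate 2 it was 0.41 and still called. DNAJA3 (0.17) and DNAJC30 (0.26) were not called.

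TRiC did not move as 1 unit. CCT2, its beta subunit, had 299 and 292 CPM in sh-Prmt1 libraries, against 586 and 544 CPM in sh-scramble libraries. That is a fall of 1.91-fold with groups far apart (log2 fold change -0.93 ± 0.09; edgeR adjusted p = 5.18e-05), called in all 10 alternatives. CCT8, the theta subunit, had 260.5 and 258 CPM in sh-Prmt1 and 337 and 340 CPM in sh-scramble (-0.39 ± 0.08, edgeR adjusted p = 0.00516), and that call was lost with the abundance offset (-0.18, adjusted p = 0.115). None of the other 6 subunits was called: TCP1 stood at 0.07, CCT3 at 0.13, CCT4 at -0.06, CCT5 at -0.04, CCT6A at 0.00 and CCT7 at 0.03. With the abundance offset TCP1, CCT3 and CCT6A were called higher, at 0.30, 0.31 and 0.27, and CCT2 stayed lower, at -0.71. CCT6B had few counts, with 48 and 47 counts in sh-Prmt1 and 61 and 83 in sh-scramble (-0.90, edgeR adjusted p = 0.0357), and was lost without sh-Prmt1 replicate 2 (adjusted p = 0.151) or sh-scramble replicate 2 (0.134).

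**Figure D5:**
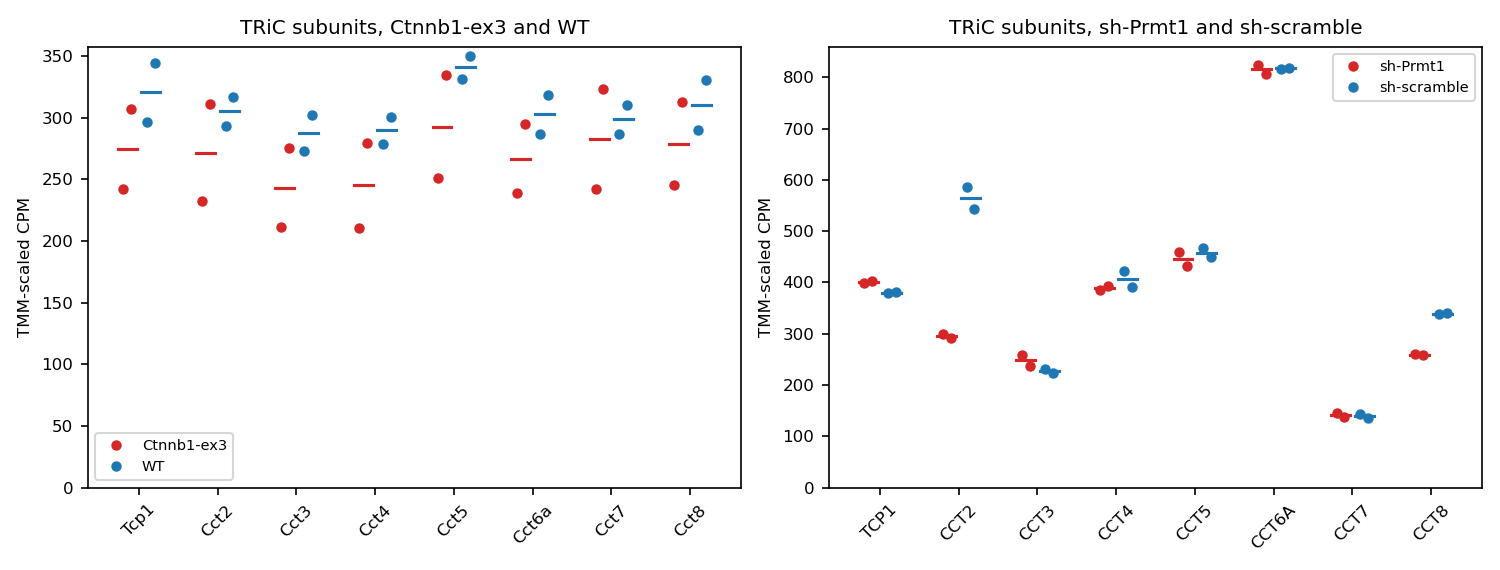
TMM-scaled CPM of the 8 TRiC subunits in each library, Ctnnb1-ex3 (red) left of WT (blue) in the left panel and sh-Prmt1 (red) left of sh-scramble (blue) in the right panel; points are libraries and bars are means of 2. On the left the groups overlap for all 8, and on the right CCT2 (299 and 292 against 586 and 544) and CCT8 are lower in sh-Prmt1.

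Levels of the subunits were set side by side per length, under the same limit that the species of the reads is not established. The 8 subunits ranged from 84.3 to 358 TPM in sh-Prmt1 replicate 1 and from 78.8 to 320.1 TPM in replicate 2, against 83.0 to 301 TPM in sh-scramble replicate 1 and 85.8 to 324 TPM in replicate 2. CCT6A was the highest in all 4 libraries. CCT2 stood at 167 and 153 TPM in sh-Prmt1, against 249 and 247 TPM in sh-scramble, and its level over that of TCP1 was 1.15 and 1.13 in sh-Prmt1, against 2.19 and 2.03 in sh-scramble. In sh-scramble it was above TCP1 by more than the spread between libraries, and in sh-Prmt1 it was close to it. The assembled complex holds 1 copy of each subunit per ring; protein was not measured.

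Among 11 tested HSP70 and 3 tested HSP110 identifiers 3 rose and 2 fell, beside backgrounds of 20.6% higher and 20.4% lower. HSPA8 had 1533 and 1558 CPM in sh-Prmt1 and 1443 and 1411 CPM in sh-scramble (log2 fold change 0.12, not called); with the abundance offset it was called higher, at 0.43 (adjusted p = 0.00436). HSPA1A rose to 88.6 and 91.7 CPM in sh-Prmt1, against 70.5 and 66.8 CPM in sh-scramble (0.39 ± 0.08, edgeR adjusted p = 0.00432), in all 10 alternatives. Its near-identical copy HSPA1B, with 19.6 and 17.8 CPM in sh-Prmt1 and 19.0 and 20.8 CPM in sh-scramble (-0.10), was not called, and how reads were shared between the copies was not tested. HSPA13 rose, with 22.9 and 29.2 CPM in sh-Prmt1 and 17.9 and 18.8 CPM in sh-scramble (0.51, edgeR adjusted p = 0.00864; 0.30 and adjusted p = 0.0839 without sh-Prmt1 replicate 2). HSPA14 under its main identifier fell, with 129 and 128 CPM in sh-Prmt1 and 149 and 162 CPM in sh-scramble (-0.28, edgeR adjusted p = 0.0288). Its other identifier stood at -0.11 and was not called. The authors' deposited table differed there, with -0.69 for the other identifier (the authors' adjusted p = 9.44e-05) and -0.32 for the main one. The HSPA14 call was lost without sh-Prmt1 replicate 1, sh-Prmt1 replicate 2 or sh-scramble replicate 2, at adjusted p-values of 0.0957, 0.0919 and 0.129, and with the offset (-0.12). HSPH1 fell, with 202 and 217 CPM in sh-Prmt1 and 261 and 254 CPM in sh-scramble (-0.30, edgeR adjusted p = 0.0209), and was lost without sh-Prmt1 replicate 1 (-0.26, adjusted p = 0.127) and with the offset (-0.11). HSPA1L had 44 and 68 counts in sh-Prmt1 and 26 and 24 in sh-scramble (0.82, edgeR adjusted p = 0.0829), groups that did not overlap and were not called. HSPA4 (0.14), HSPA4L (-0.25), HSPA2 (0.16) and HSPA12A (0.26) were not called in this fit, HSPA4 being called higher with the offset (0.32) and HSPA4L lower by DESeq2 and without sh-scramble replicate 2 (-0.34). HSPA12B had 0 counts in all 4 libraries, where the floor of 3 counts applies.

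HSP90AA1 rose, with 2213 and 2287 CPM in sh-Prmt1 and 1894 and 1706 CPM in sh-scramble (log2 fold change 0.32, edgeR adjusted p = 0.0276). HSP90AB1 had 1969 and 1954 CPM in sh-Prmt1 and 1775 and 1524 CPM in sh-scramble (0.25, edgeR adjusted p = 0.0865). Both lay higher in both sh-Prmt1 libraries. The HSP90AA1 call was lost without sh-Prmt1 replicate 1 (adjusted p = 0.0921), sh-Prmt1 replicate 2 (0.157) or sh-scramble replicate 2 (0.134). With the abundance offset both were called higher, HSP90AA1 at 0.65 and HSP90AB1 at 0.57, and HSP90AB1 was also called without sh-scramble replicate 1, at 0.32 (adjusted p = 0.0359).

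Of 9 small HSP identifiers 3 passed the filter. HSPB1 rose 1.55-fold, with 94.4 and 87.0 CPM in sh-Prmt1 and 55.0 and 62.3 CPM in sh-scramble (log2 fold change 0.63 ± 0.09; edgeR adjusted p = 0.000615), in all 10 alternatives. HSPB11 fell, with 94.7 and 109.8 CPM in sh-Prmt1 and 140.3 and 165 CPM in sh-scramble (-0.58, edgeR adjusted p = 0.0023). HSPB3, a small HSP of muscle, had 55 and 89 counts in sh-Prmt1 and 29 and 28 in sh-scramble (0.99, edgeR adjusted p = 0.0307), a call lost without any 1 of the 4 libraries, at adjusted p-values from 0.0513 to 0.17. The groups of these genes did not overlap. HSPB8 stayed under the filter with at most 9 counts, and of the 11 identifiers there only HSPB2-C11orf52 had a library apart, with 23 counts in sh-Prmt1 replicate 2 and 0 in the other libraries.

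J-domain genes were called in both directions: 10 of 39 tested rose and 7 fell, near the backgrounds of 20.6% and 20.4%. DNAJC24, which serves diphthamide synthesis on elongation factor 2, had 20.0 and 23.1 CPM in sh-Prmt1 libraries, against 45.8 and 44.4 CPM in sh-scramble libraries. Its groups were far apart, with a log2 difference of -1.06 ± 0.10 (edgeR adjusted p = 3.97e-05). DNAJC7 fell, with 36.1 and 35.4 CPM in sh-Prmt1 and 55.5 and 47.3 CPM in sh-scramble (-0.52, edgeR adjusted p = 0.00207). Both calls held in all 10 alternatives.

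Cytosolic cofactors of HSP70 split. DNAJB1 had 44.5 and 43.7 CPM in sh-Prmt1 and 55.6 and 55.1 CPM in sh-scramble (-0.33, edgeR adjusted p = 0.00971), in all 10 alternatives. DNAJA1 had 221 and 232 CPM in sh-Prmt1 and 290.4 and 281 CPM in sh-scramble (-0.34, edgeR adjusted p = 0.0114), lost without sh-Prmt1 replicate 1 (-0.31, adjusted p = 0.0741) and with the offset (-0.14). DNAJA2 (0.03) and DNAJB6 (0.03) were not called. DNAJB2, a neuronal-type J-domain protein that links HSP70 to the proteasome, rose 1.95-fold, with 11.3 and 9.95 CPM in sh-Prmt1 and 5.61 and 5.26 CPM in sh-scramble (0.96 ± 0.14, edgeR adjusted p = 0.000456). DNAJA4 rose, with 30.9 and 29.9 CPM in sh-Prmt1 and 21.7 and 20.2 CPM in sh-scramble (0.54, edgeR adjusted p = 0.00129). In DNAJB2 and DNAJA4 all sh-Prmt1 values were above all sh-scramble values, and both calls held in all 10 alternatives.

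Of 8 members known from the endoplasmic reticulum, 5 rose and 0 fell, with a median of 0.52 on the log2 scale. The background was 20.6% higher. This grouping was made after the values were seen, so its counts are descriptive and cannot be weighed against that background. Of 7 chaperones of the endoplasmic reticulum outside the name rule, 2 rose, HSPA5 (0.28) and DNAJB9 (0.52), and 1 fell, DNAJC3 (-0.85, edgeR adjusted p = 5.45e-05), with a median of 0.07. The 5 members that rose were DNAJC25 (0.70), DNAJB12 (0.68), DNAJC16 (0.66), DNAJC10 (0.52) and HSPA13 (0.51). DNAJC1 (0.26), DNAJC18 (0.07) and DNAJB14 (0.02) were not called. DNAJC10, a disulfide reductase that aids degradation from the reticulum, had 100 and 105 CPM in sh-Prmt1 and 68.9 and 73.5 CPM in sh-scramble (edgeR adjusted p = 0.000949). DNAJB12, a membrane J-domain protein that passes misfolded membrane proteins on, had 21.2 and 20.8 CPM in sh-Prmt1 and 13.2 and 13.0 CPM in sh-scramble (edgeR adjusted p = 0.000531). DNAJC16 had 41.5 and 41.9 CPM in sh-Prmt1 and 27.1 and 25.5 CPM in sh-scramble (edgeR adjusted p = 0.000266). The replicates of these genes were close and the groups apart. DNAJC25, with 11.5 and 10.6 CPM in sh-Prmt1 and 6.74 and 6.82 CPM in sh-scramble, rose (edgeR adjusted p = 0.00192), whereas its readthrough locus DNAJC25-GNG10 fell (-0.45, edgeR adjusted p = 0.0452); they share exons, so reads may be split between them. That readthrough call was lost without sh-Prmt1 replicate 1, sh-Prmt1 replicate 2 or sh-scramble replicate 2, at -0.37, -0.57 and -0.22, and stood at -0.70 without sh-scramble replicate 1. The same 8 genes in Ctnnb1-ex3 organoids gave 2 rises and 1 fall.

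Further J-domain genes rose. DNAJC5, the cysteine string protein of secretory vesicles, had 55.4 and 53.6 CPM in sh-Prmt1 and 33.2 and 32.6 CPM in sh-scramble (0.73 ± 0.08, edgeR adjusted p = 0.000116), in all 10 alternatives. DNAJC22 had 14.4 and 16.8 CPM in sh-Prmt1 and 11.1 and 10.9 CPM in sh-scramble (0.51, edgeR adjusted p = 0.00805; 0.37 and 0.0765 without sh-Prmt1 replicate 2). DNAJC13 had 45.7 and 51.6 CPM in sh-Prmt1 and 40.0 and 37.7 CPM in sh-scramble (0.32, edgeR adjusted p = 0.0189; 0.21 and 0.163 without sh-Prmt1 replicate 2, 0.26 and 0.113 without sh-scramble replicate 2). The groups of these called genes did not overlap, which is no separate support.

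Side by side, 60 symbols were tested in both experiments, which share no library. Of the 13 called in Ctnnb1-ex3 organoids and the 27 called in sh-Prmt1, 3 were called in both, 23.1% of the 13 and 11.1% of the 27. Over all 9554 symbols tested in both, matched by spelling, the shared calls were 52.6% of the Ctnnb1-ex3 calls and 41.4% of the sh-Prmt1 calls. Of these 2079 shared calls, 992 had the same direction and 1087 opposite directions. The 3 members had 1 and 2. DNAJC7 fell in both, at -0.68 in Ctnnb1-ex3 and -0.52 in sh-Prmt1. Dnajc13 fell in Ctnnb1-ex3 (-0.81) and rose in sh-Prmt1 (0.32), and Hspa13 did likewise (-0.51 and 0.51). Prmt1 itself was higher in Ctnnb1-ex3, with 51.2 and 32.4 CPM against 10.1 and 11.4 CPM in WT (log2 fold change 1.97, edgeR adjusted p = 0.00287). The 2 experiments differ in species identifiers, counting and depth, and the difference between them was not tested.

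The regulators and cofactors of the same machinery lie outside the name rule and were followed as a list of 47 genes. That list was drawn up with earlier results of these data known, so its counts are descriptive. In Ctnnb1-ex3 organoids 45 were tested, 6 rose and 9 fell, beside backgrounds of 20.3% higher and 20.5% lower over all genes. Hsf1, the heat shock factor itself, rose, with 62.5 and 52.9 CPM in Ctnnb1-ex3 and 27.6 and 31.6 CPM in WT (0.97, edgeR adjusted p = 0.00749; 0.84 and 0.0649 without WT replicate 1). Of the 8 tested TRiC cofactors 4 fell and 0 rose: Pdcl3 (-0.97), Pdcl (-0.91), Txndc9 (-0.52) and the prefoldin subunit Vbp1 (-0.39). The phosducin-like proteins Pdcl3, with 104 and 101 CPM in Ctnnb1-ex3 against 189 and 215 CPM in WT, and Pdcl, with 57.9 and 60.6 against 105 and 118 CPM, act as cochaperones of the ring, and both calls held in all 11 alternatives. Those of Txndc9 and Vbp1 were lost without WT replicate 1 (adjusted p = 0.118 and 0.19) or WT replicate 2 (0.199 and 0.341), with upper-quartile factors (-0.28 and -0.16) and with the abundance offset (-0.16 and -0.17).

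HSP70 and HSP90 cofactors moved both ways in Ctnnb1-ex3. Fkbp5 (1.16), Hspbp1 (0.74), Bag6 (0.64) and Aarsd1 (0.60) rose, and Ahsa2 (-0.68), Bag4 (-0.62) and Chordc1 (-0.42) fell. Without WT replicate 2 none of these 7 was called, at log2 fold changes from -0.70 for Ahsa2 to 0.91 for Fkbp5. That fit called fewer of all genes than the main fit. Among mitochondrial factors the exchange factor Grpel2 (0.50) rose, and the protease subunit Clpx (-0.72) and the protease Yme1l1 (-0.67) fell. Grpel2 and Yme1l1 lost their calls without WT replicate 1 (adjusted p = 0.176 and 0.103) or WT replicate 2 (0.288 and 0.0768), and Clpx without WT replicate 1 (0.0502). With the abundance offset Yme1l1 was at -0.20 and Chordc1 at -0.17, neither called, and Grpel2 was called at 0.84; with upper-quartile factors the calls of Ahsa2 (-0.45) and Bag4 (-0.38) were also lost. The fall of Ahsa2 was -0.39 without Ctnnb1-ex3 replicate 1 and -1.03 without replicate 2. Outside the list, 7 chaperones of the endoplasmic reticulum left out by the name rule gave 0 rises and 2 falls, with a median of -0.45. Dnajb9, a J-domain cofactor induced by stress of the endoplasmic reticulum, had 21.8 and 19.0 CPM in Ctnnb1-ex3 against 97.8 and 87.5 CPM in WT (-2.18, edgeR adjusted p = 0.000189). Dnajc3 fell as well (-0.59, edgeR adjusted p = 0.019), a call lost with the abundance offset (-0.15) and upper-quartile factors (-0.35).

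After sh-Prmt1, 46 genes of the list were tested, 12 rose and 14 fell, beside backgrounds of 20.6% higher and 20.4% lower. Of 9 TRiC cofactors 6 fell: PFDN4 (-0.88), TXNDC9 (-0.87), VBP1 (-0.86), PFDN1 (-0.69), PFDN6 (-0.55) and PDCL (-0.50), while PFDN2 (0.41) and PFDN5 (0.27) rose. VBP1 had 71.9 and 79.4 CPM in sh-Prmt1 against 141 and 134 CPM in sh-scramble (edgeR adjusted p = 7.63e-05). Prefoldin is a hexamer of such subunits, which moved in opposite directions here. PFDN5 and PFDN6 lost their calls in 7 and 4 of 10 alternatives, each without sh-Prmt1 replicate 1 or 2 or sh-scramble replicate 1, PFDN5 also without sh-scramble replicate 2; PFDN6 stood at -0.27 without sh-scramble replicate 1 and -0.84 without replicate 2. PFDN2 lost its call without sh-Prmt1 replicate 1 (0.31, adjusted p = 0.0709). PFDN2 was at 0.62 and PFDN5 at 0.52 with the abundance offset.

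CHORDC1, an HSP90 cofactor, had the largest fall of the list, with 62.7 and 66.7 CPM in sh-Prmt1 against 201 and 203 CPM in sh-scramble (-1.64 ± 0.09, edgeR adjusted p = 4.97e-06). The HSP90 cochaperone FKBP4 had the largest rise, with 98.8 and 88.9 CPM in sh-Prmt1 against 45.4 and 43.8 CPM in sh-scramble (1.07 ± 0.09, edgeR adjusted p = 2.45e-05). Replicates agree closely in both. AHSA1 (0.59), CDC37L1 (0.41), BAG1 (0.85), HSPBP1 (0.45) and BAG6 (0.35) rose, and FKBP5 (-0.59), PTGES3 (-0.51), STIP1 (-0.34), BAG4 (-1.03) and BAG3 (-0.39) fell. TRAP1, the mitochondrial HSP90, had 145 and 128 CPM in sh-Prmt1 against 78.6 and 73.2 CPM in sh-scramble (0.85, edgeR adjusted p = 0.000107), and the proteases LONP1 (0.70) and HTRA2 (0.36) and the protease subunit CLPX (0.57) rose as well. GRPEL2, with 17.5 and 21.2 CPM in sh-Prmt1 against 35.3 and 36.5 CPM in sh-scramble, fell (-0.89). HSF1 stood at -0.02 and HSF2 fell (-0.51). Calls lost with a library left out were those of STIP1 without sh-scramble replicate 1, BAG3 without sh-Prmt1 replicate 1, CDC37L1 without sh-Prmt1 replicate 1 or sh-scramble replicate 2, BAG6 without sh-Prmt1 replicate 2 or sh-scramble replicate 2, and HTRA2 without sh-Prmt1 replicate 1 or either sh-scramble replicate. The fall of BAG4 was -0.48, and still called, without sh-scramble replicate 2. PTGES3 lost its call with the abundance offset (-0.22).

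The authors' deposited table of each comparison gave 12 members an adjusted p under 0.05 in Ctnnb1-ex3, 3 with a positive and 9 with a negative log2 fold change, and 27 in sh-Prmt1, 10 positive and 17 negative. The authors' shares over all genes are not given here, so these counts have no background. In the knockdown, the authors' deposited table placed 0 of the members in its classes of raised or lowered genes. By its name, that table also sets a cutoff on the size of the log2 fold change. The largest change of a member in it was -1.35, for DNAJC24.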

How the data were processed

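For the genotype experiment the authors deposited whole-number counts per mouse gene symbol; the submitters' processing notes name mm10, Salmon and DESeq2 without roles or versions, and its aligner is not given in the sources used here. The lowest deposited count is 1, and 861 genes stand at 1 in all 4 libraries, so an alternative took 1 away from every count. For the knockdown experiment, per the file headers, the authors deposited gene-level Salmon output with estimated counts and TPM. Its identifiers are human although the labels name mouse; symbols come from the authors' deposited comparison, and the human annotation is not given in the sources used here. Estimated counts were rounded, and 197 human sex-linked identifiers were left out. The authors' deposited tables also hold log2 fold changes and adjusted p-values, quoted only where named.

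The experiments were fitted separately in R 4.3.3 with edgeR 4.0.16 (TMM, filterByExpr, two-sided quasi-likelihood test, Benjamini-Hochberg adjustment over all genes tested, call at an adjusted p under 0.05), and the scripts were tested on simulated data. SE is the log2 fold change over the square root of F. Alternatives were DESeq2 1.42.0, limma-voom (limma 3.58.1), upper-quartile factors, no filter, a replicate block, each library left out and, added after seeing the data, an offset per library from a loess on abundance (span 0.4). Libraries of a group differed beyond counting noise: chi-square over degrees of freedom was 9.82 in Ctnnb1-ex3, 3.75 in WT, 14.6 in sh-Prmt1 and 27.3 in sh-scramble, so each was kept as 1 replicate. Depth sets the floor: a count of 0 allows up to 3 counts, which covers counting error only.

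Groups and replicate numbers come from the sample titles. The members, the companion and marker lists, and the naming rule were chosen with earlier results of these data known. Named are PRMT1, a fixed set of the main chaperones, every other called member, called genes of the companion lists, and members under the filter where 1 library stands apart; Hspa1l (HSPA1L in the knockdown), Dnajc2, Dnajc19 and Dnaja4 were named after their values were seen. Mouse coordinates are those of GENCODE on mm10, and promoter windows are RefSeq's on GRCm38.p6, the same assembly. Human coordinates and sequences were not used here.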

Additional observations from a re-analysis of the deposited data

How the results depend on the processing

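For Ctnnb1-ex3 against WT, where 6 members were called higher and 7 lower, DESeq2 called 3 higher and 11 lower. Upper-quartile factors gave 13 higher and 3 lower, and the offset following abundance 11 higher and 4 lower. These were 18.2%, 25.8% and 24.2% of tested members, beside 20.5%, 42.2% and 36.3% of all genes. The main fit had 21.0% and 40.8%. With single libraries left out, between 1 and 13 members were higher and between 2 and 13 lower; the lowest counts, 1 and 2, were without WT replicate 2, and the highest, 13 and 13, without Ctnnb1-ex3 replicate 2. In these fits the lone library is assumed to vary like the other group. Calls over all genes were also fewer without either WT replicate and more without either Ctnnb1-ex3 replicate. For sh-Prmt1 against sh-scramble, where 16 were higher and 15 lower, the offset gave 26 higher and 10 lower, and leave-outs gave between 9 and 15 higher and between 10 and 15 lower; the lowest, 9 higher, was without sh-Prmt1 replicate 2. There the offset called 51.4% of tested members, beside 40.1% of all identifiers, and each leave-out called fewer of all identifiers than the main fit. The causes were not tested. Under the offset, Hspa4 (0.38), Cct7 (0.36) and Hsp90ab1 (0.45) turned positive and were called in Ctnnb1-ex3, and CCT6A (0.27) in sh-Prmt1.

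Over all genes the split of calls was 2637 higher and 2654 lower in Ctnnb1-ex3, 3725 and 1752 with upper-quartile factors. The replicate numbers were not shown to pair the libraries: over all genes tested, same-numbered deviations correlated at 0.07 in the genotype and -0.05 in the knockdown experiment. That correlation weighs every gene alike and does not describe abundant genes alone. In both genotype groups the ratio of replicate 1 to replicate 2 fell with the count. It was 1.92 and 1.84 at 30 to 100 counts, and 1.39 and 1.38 above 2000 counts. With the replicate block, 9 members were higher and 16 lower in Ctnnb1-ex3, 25 in all, with Dnaja1, Hspa8, Hspa9, Hspd1 and Hspe1 among the lower, and 15 higher and 13 lower in sh-Prmt1, 28 in all. Under the filter on low counts, 15 of 77 members could not be tested in the genotype experiment and 11 of 81 in the deeper knockdown. With 2 libraries per group, a member that was not called is not shown to be equal.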
